A study of Rattus norvegicus with 9 samples.

Results

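The guide strands of the miR-10, miR-99 and miR-100 family were followed across small RNA libraries of the rat hippocampus. The members are 5 mature miRNAs, listed as rno-miR-10a-5p, rno-miR-10b-5p, rno-miR-99a-5p, rno-miR-99b-5p and rno-miR-100-5p, taken by name from a table of 633 mature miRNAs. They were chosen by name, but with their levels and fold changes in these same 9 libraries already known. Their own values are therefore a description and carry no test, and the tests are on other strands of the same precursors and transcripts.

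Hippocampi of Sprague-Dawley rats gave 9 libraries, 3 for each treatment. The vehicle group (VEH) received intraperitoneal saline for 14 days and again for 7 days. The MK-801 group was given dizocilpine, the NMDA receptor channel blocker known as MK-801 and used to model schizophrenia. The dose was 0.2 mg/kg once a day for 14 days, with saline over the last 7 days. Rats of the MK-801+CLO group had the same MK-801 course, with 7 days of the antipsychotic clozapine (CLO) at 10 mg/kg in place of the final saline. The labels give the age as postnatal day 21, and the protocol describes rats of 5 weeks at the start of treatment, after 14 days of habituation. They count 10 rats per group and do not state whether a library is 1 rat or a pool. The spread behind each p-value is that among libraries, and it may be technical instead of biological. Library totals ran from 10665718 to 18284905 miRNA counts. The forebrain neuron markers miR-124-3p, miR-9a-5p, miR-128-3p, miR-138-5p and miR-132-3p together made up 120990 to 148850 CPM in every library, CPM being the miRNA count scaled to the same total in each library.

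The miR-10, miR-99 and miR-100 precursors belong to an old animal miRNA family. The strands followed here as guide strands, the arms loaded into Argonaute, all come from the 5′ side of the hairpin. A miRNA finds its targets mainly through its seed, bases 2 to 8. The miR-10 genes sit inside the Hox clusters, are transcribed with the Hox genes that pattern the trunk and hindbrain, and are usually low in forebrain tissue. The miR-99 and miR-100 genes lie outside the Hox clusters, each in a polycistron with a let-7 and a miR-125 gene, and are known for targeting mTOR and its pathway. In the RefSeq annotation of assembly GRCr8, Mir10a lay in the Hoxb cluster, with Hoxb4 and Hoxb5 among its neighbours, and Mir10b lay within the Hoxd4 gene model. Mir99a neighboured Mirlet7c1 and Mir125b2, Mir99b neighboured Mirlet7e and Mir125a within Spaca6, and Mir100 neighboured Mirlet7a-2 and Mir125b1 within Mir100hgl. That assembly is not the build named by the submitters, so no coordinates are given.

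The 5 sequences are shown because they set which members share a seed and which could be confused in counting. They are printed as deposited, 5′ to 3′ with T for U, with the seed in capitals.
miR-10a-5p: tACCCTGTagatccgaatttgtg
miR-10b-5p: cCCTGTAGaaccgaatttgtgt
miR-99a-5p: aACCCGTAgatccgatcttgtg
miR-99b-5p: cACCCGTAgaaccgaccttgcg
miR-100-5p: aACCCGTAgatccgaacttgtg
The 3 miR-99/100 strands shared the seed ACCCGTA, and no other miRNA in the table had it. The miR-10a-5p seed, ACCCTGT, was held by 1 listed miRNA, miR-10a-5p itself. Without base 6, a T, the miR-10a-5p sequence matched miR-100-5p at all but 2 of 22 bases, so the miR-10 and miR-99/100 seeds differ by that added base. With positions counted from the 5′ end, miR-99a-5p and miR-100-5p differed only by T16A. MiR-99b-5p differed from miR-99a-5p by A1C, T11A, T16C and T21C.

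The listed miR-10b-5p starts 2 bases later than miR-10a-5p, which gives it the seed CCTGTAG. Over the 21 bases that the 2 sequences share in that register they differed by T12A, counted on miR-10a-5p. The RefSeq (GRCr8) hairpin of Mir10b carries those 2 earlier bases, shown here in capitals ahead of the listed miR-10b-5p.
Mir10b hairpin stretch: UAcccuguagaaccgaauuugugu
Read from the first of these capitals, the stretch has the same seed as miR-10a-5p and differs from it by T12A alone. The sources used here do not give how reads with such a start were assigned, and whether some of them were counted as miR-10a-5p was not tested.

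MiR-10b-5p, the guide strand of the Hoxd locus, was almost absent as listed. It had 1 count in VEH replicates 1 and 3, in MK-801 replicate 1 and in MK-801+CLO replicate 1, and 0 counts in the other 5 libraries. Those 4 counts in all put it at rank 589 of 633 by mean level. In a library with 0 counts, a true level of up to 3 counts could be missed through counting error alone, which is 0.176 CPM in the deepest of those 5 libraries, MK-801 replicate 2, and 0.281 CPM in the shallowest, MK-801+CLO replicate 2. It was too low to be fitted, and no fold change is given for it.

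MiR-10a-5p, the guide strand of the Hoxb locus, ranked 179 by mean level and differed widely between libraries of a group. In VEH it stood at 119, 448 and 36.3 CPM in replicates 1, 2 and 3. In MK-801 it stood at 62.6, 53.7 and 70.8 CPM. In MK-801+CLO it stood at 95.9, 17.3 and 89.9 CPM. VEH replicate 2 was the highest library and MK-801+CLO replicate 2 the lowest, and the range of VEH enclosed all 3 MK-801 libraries. Counting error was small beside these gaps, with a 95% Wilson interval of 436 to 461 CPM in VEH replicate 2 and 15 to 20 CPM in MK-801+CLO replicate 2. The coefficient of variation was 108% in VEH, 64.6% in MK-801+CLO and 13.7% in MK-801.

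**Figure D1:**
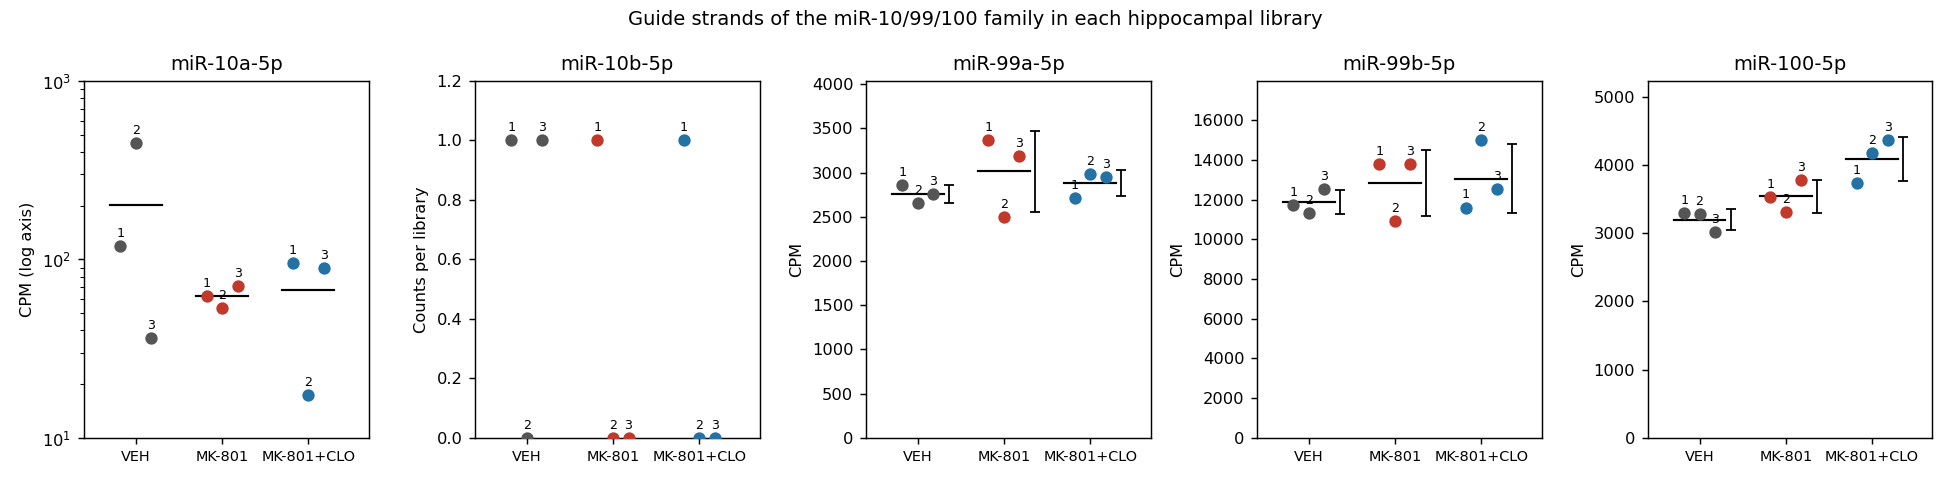
Level of each of the 5 guide strands in every library, by group, with points numbered by replicate. Levels are in CPM (log axis for miR-10a-5p, linear from 0 otherwise) and in counts for miR-10b-5p; black lines are group means and error bars are SD (n = 3), which are left out for miR-10a-5p, and both are left out for miR-10b-5p. MiR-10a-5p reaches 448 CPM in VEH replicate 2 and 17.3 CPM in MK-801+CLO replicate 2, while miR-100-5p is above all VEH libraries in all 3 MK-801+CLO libraries.

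Of the 333 miRNAs with a mean of at least 10 CPM, miR-10a-5p had the widest range over the 9 libraries, its highest value being 25.9 times its lowest. The next were miR-1298 at 13.3 times and miR-448-3p at 13.2 times, both on the list of choroid plexus and ependymal markers and both highest in VEH replicate 3, not VEH replicate 2. The median over the 333 miRNAs was 1.45 times. MiR-99a-5p, miR-99b-5p and miR-100-5p lay close to that, at 1.35, 1.37 and 1.44 times. In VEH replicate 2, miR-10a-5p was 3.78 times the next highest library. The next largest such excess among the 333 miRNAs in that library was that of miR-31a-5p, at 1.25 times, which was named after its values were seen.

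**Figure D2:**
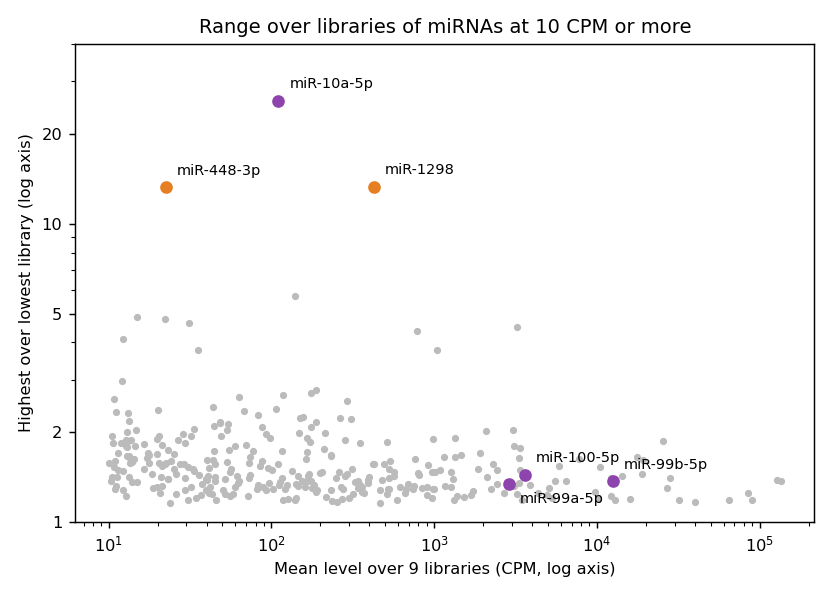
Range of each of 333 miRNAs over the 9 libraries, as the highest over the lowest library (log axis), against its mean level in CPM (log axis). Purple points are members of the family, orange points the 2 choroid plexus and ependymal markers with the next widest ranges, and grey points all others. MiR-10a-5p stands at 25.9 times and the 3 miR-99/100 strands at 1.35 to 1.44 times, near the median of 1.45 times.

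Other Hox-cluster miRNAs were at or near 0. MiR-196a-5p, miR-196b-5p, miR-196c-5p and miR-615 had at most 3 counts each in any library, with 8, 4, 1 and 3 counts in all. VEH replicate 2 held 1, 2, 0 and 3 of these counts, including all those of miR-615, from the Hoxc cluster. All 4 of these markers were in the table, but 0 of them had enough counts to be fitted. Their summed level was 0.51 CPM in VEH replicate 2 and 0.109 and 0.12 CPM in the other VEH libraries. In the libraries of the drug groups it was 0 to 0.157 CPM. The 9 choroid plexus and ependymal markers summed to 3985 CPM in VEH replicate 2, the lowest of the VEH libraries, whose highest was 12395 CPM. The 4 blood vessel markers summed to 21837 CPM in VEH replicate 2, the lowest of the VEH libraries, and the 4 red blood cell markers to 3563 CPM, the highest of them. The part of other cells or neighbouring tissue in the miR-10a-5p values was not tested. In bulk tissue, fewer cells of a type and less RNA per cell cannot be told apart.

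The miR-99/100 strands had far more counts than the miR-10 strands and differed less between libraries. MiR-99b-5p ranked 17 of 633, miR-100-5p 32 and miR-99a-5p 43, with means over the 9 libraries of 12579, 3608 and 2883 CPM. Their summed level was 16728 to 22128 CPM, against 17.3 to 448 CPM for the summed miR-10 strands. MiR-99b-5p made up 63.2% to 68.5% of the miR-99/100 sum in every library, miR-100-5p 16.5% to 22% and miR-99a-5p 13.5% to 16.3%. MiR-99b-5p thus had the most counts of the members in all 9 libraries, and miR-100-5p had more than miR-99a-5p in all 9. Whether counts of different strands follow their amounts of RNA was not tested.

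MiR-99a-5p comes from the let-7c and miR-125b-2 transcript. It stood at 2854, 2651 and 2752 CPM in VEH replicates 1 to 3, at 3362, 2498 and 3185 CPM in MK-801, and at 2716, 2981 and 2945 CPM in MK-801+CLO. The 3 groups overlapped, and MK-801 held both the highest and the lowest library.

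MiR-99b-5p comes from the let-7e and miR-125a transcript. It stood at 11741, 11325 and 12547 CPM in VEH, at 13778, 10924 and 13775 CPM in MK-801, and at 11597, 14972 and 12552 CPM in MK-801+CLO. MK-801 replicates 1 and 3 were above all VEH libraries and replicate 2 below all of them, as for miR-99a-5p.

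MiR-100-5p comes from the let-7a-2 and miR-125b-1 transcript. It stood at 3290, 3280 and 3020 CPM in VEH, at 3526, 3305 and 3783 CPM in MK-801, and at 3733, 4174 and 4359 CPM in MK-801+CLO. All 3 MK-801+CLO libraries were above all VEH libraries, and MK-801 lay between them, with replicate 3 above the lowest MK-801+CLO library. Group means were 3196 ± 153, 3538 ± 239 and 4089 ± 322 CPM (SD, n = 3).

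MK-801 was first set against VEH, for the effect of the NMDA receptor blocker. The miR-99/100 strands lay above VEH and miR-10a-5p below it, with log2 fold changes from edgeR of 0.16 ± 0.13 for miR-99a-5p, 0.14 ± 0.14 for miR-99b-5p, 0.17 ± 0.11 for miR-100-5p and -1.65 ± 0.79 for miR-10a-5p (± SE, 3 libraries a side). The median over all 469 miRNAs tested was -0.02. The miR-10a-5p value was -0.29 without VEH replicate 2 and -0.94 in limma voom. Without MK-801 replicate 2 the miR-99/100 values were 0.31, 0.27 and 0.25 in the same order. MiR-100-5p was the 1 of 4 fitted members whose libraries did not overlap with VEH, against 5.97% of all tested miRNAs that lay wholly higher and 7.89% that lay wholly lower. With TMM scaling of the levels miR-100-5p overlapped too, at 3135 in MK-801 replicate 2 against 3257 in VEH replicate 1.

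The passenger strands and the let-7 and miR-125 partners, which the choice of members did not use, were tested in the same edgeR fit. Of the 5 passenger strands, miR-99a-3p and miR-99b-3p had enough counts, as did all 11 partner strands. Of these 13, 0 passed an adjusted p of 0.05 in MK-801 against VEH, and 0 had an unadjusted p under 0.05, in edgeR. Over all 469 tested miRNAs these shares were 0% and 5.12%. DESeq2 and limma voom also called 0 of the 13, and over all miRNAs they called 1 and 0. The 5 partner guide strands let-7a-5p, let-7c-5p, let-7e-5p, miR-125a-5p and miR-125b-5p all lay below VEH, with a median log2 fold change of -0.16, while the 3 miR-99/100 guide strands from the same loci all lay above it. With upper-quartile scaling 4 of these 5 partner guide strands lay below. Of all 11 tested partner strands, 8 lay below VEH and 3 above it. Among the 3 was let-7e-3p, from the hairpin of let-7e-5p, at 0.16 ± 0.10 (adjusted p = 0.814 in edgeR). Over all 469 tested miRNAs, 251 lay below VEH and 218 above it. MiR-125a-5p was at -0.16 ± 0.08 (adjusted p = 0.814 in edgeR) and let-7e-5p at -0.13 ± 0.10 (adjusted p = 0.824 in edgeR). MiR-99a-3p, the passenger strand of the miR-99a hairpin, was at 0.15 ± 0.12 (adjusted p = 0.824 in edgeR), close to its guide strand. Libraries of 4 of the 13 lay wholly below VEH and of 1 wholly above it, against 7.89% and 5.97% of all tested miRNAs in CPM. With TMM scaling of the levels 3 and 0 of the 13 did so, and no share over all tested miRNAs was computed on that scale. Several partners, let-7a-5p, let-7c-5p and miR-125b-5p, have more than a single gene copy, so their counts do not come from these loci alone.

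**Figure D3:**
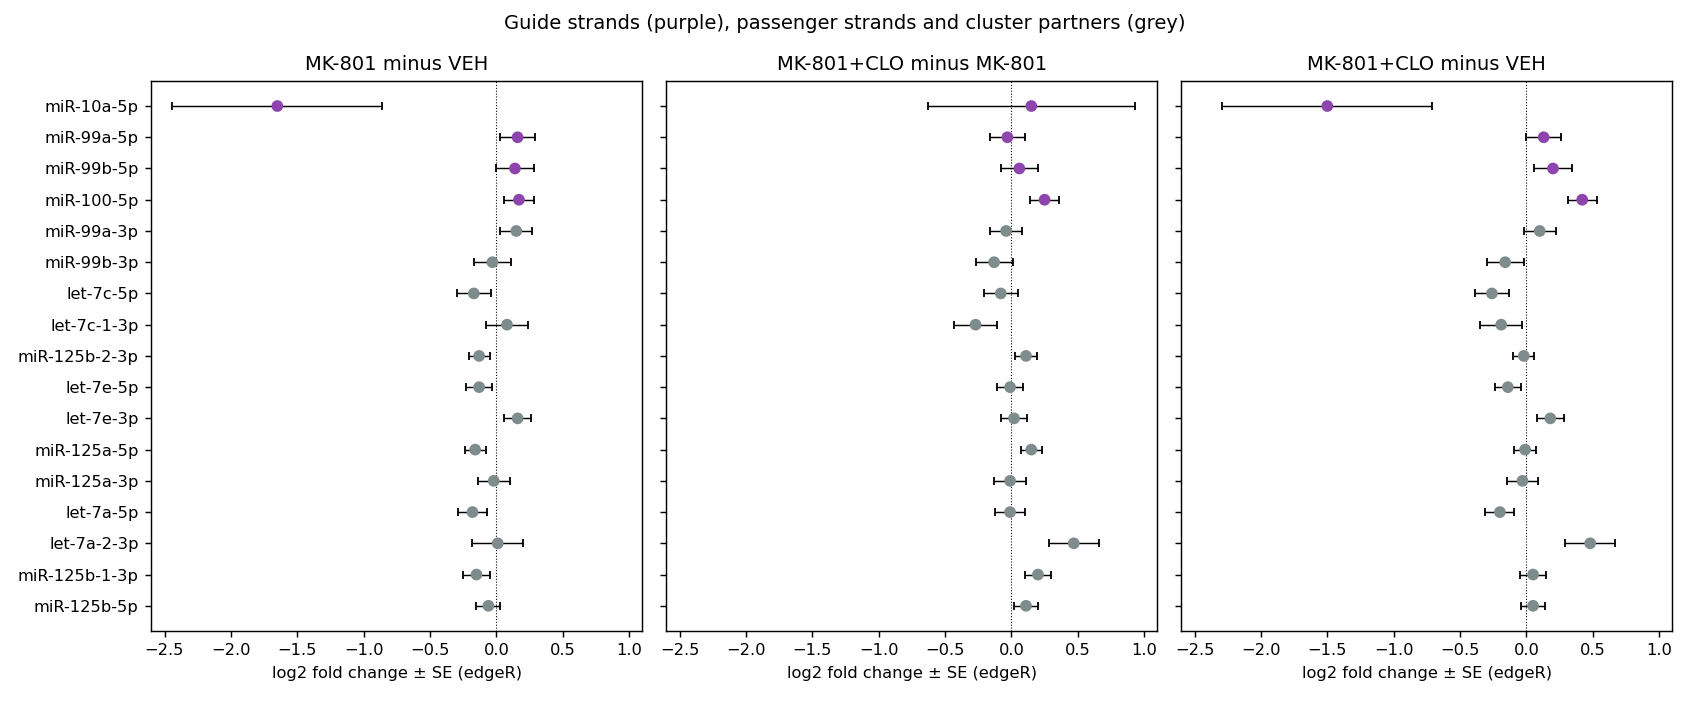
Log2 fold change ± SE from edgeR (n = 3 libraries a side) in the 3 comparisons, for the 4 guide strands that could be fitted (purple) and the 13 tested passenger strands and cluster partners (grey). MiR-10a-5p has the widest error bars of those drawn, and miR-100-5p is at 0.42 ± 0.11 in MK-801+CLO minus VEH.

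Clozapine given after MK-801 was then set against MK-801 followed by saline. MiR-100-5p was 0.25 ± 0.11 above MK-801 on the log2 scale, and its libraries overlapped between the groups. MiR-99b-5p stood at 0.06 ± 0.14, miR-99a-5p at -0.03 ± 0.13 and miR-10a-5p at 0.15 ± 0.78, with a median of -0.004 over all miRNAs. The sign of miR-99b-5p turned with upper-quartile scaling (-0.05), which moved the median of all miRNAs to -0.116, and that of miR-10a-5p turned in limma-trend (-0.17 with a pseudocount of 1). Without MK-801+CLO replicate 2 the miR-10a-5p value was 0.60. Of the 4 fitted members, 0 lay wholly above or below MK-801, against 4.69% of all tested miRNAs above and 6.82% below. Of the 13 passenger strands and partners, 0 passed the adjusted threshold in edgeR, DESeq2 or limma voom. Over all miRNAs DESeq2 called 2 and limma voom 0. In edgeR 0% of all tested miRNAs passed the adjusted threshold and 8.32% had an unadjusted p under 0.05, as did 1 of the 13. That 1 was let-7a-2-3p, the passenger strand of the let-7a-2 hairpin next to miR-100, at 4.77 ± 0.277 CPM against 3.55 ± 0.688 CPM (SD, n = 3), a log2 fold change of 0.47 ± 0.19 (adjusted p = 0.526 in edgeR). MiR-125b-1-3p of the same transcript was at 0.20 ± 0.10 (adjusted p = 0.589 in edgeR), and miR-125a-5p at 0.15 ± 0.08 (adjusted p = 0.640 in edgeR). Libraries of 2 of the 13 lay wholly above MK-801 and of 1 wholly below it, against 4.69% and 6.82% of all tested miRNAs in CPM. With TMM scaling of the levels 3 and 0 of the 13 did so, again with no share over all tested miRNAs on that scale.

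Last, both drugs in sequence (MK-801+CLO) were compared with saline throughout (VEH). This comparison reuses libraries of the previous pair, so the 3 are not independent. All 3 miR-99/100 strands lay above VEH, miR-100-5p at 0.42 ± 0.11, miR-99b-5p at 0.20 ± 0.14 and miR-99a-5p at 0.13 ± 0.13, as log2 fold changes. MiR-100-5p ran from 0.34 to 0.50 over the 22 alternatives. The miR-99b-5p value was 0.06 without MK-801+CLO replicate 2, the library with its highest level. MiR-10a-5p was at -1.50 ± 0.79, and at -0.14 without VEH replicate 2. MiR-100-5p was again the 1 of 4 fitted members without overlap, against 5.97% of all tested miRNAs wholly above VEH and 11.5% wholly below in CPM. It stayed without overlap with TMM scaling of the levels, for which no share over all tested miRNAs was computed.

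Of the 13 passenger strands and partners, 0 passed in MK-801+CLO against VEH in edgeR, DESeq2 or limma voom. Over all miRNAs DESeq2 called 3 and limma voom 0. In edgeR 0% of all tested miRNAs passed the adjusted threshold and 14.9% had an unadjusted p under 0.05, as did 1 of the 13. It was let-7a-2-3p once more, at 4.77 ± 0.277 CPM against 3.59 ± 0.518 CPM (SD, n = 3), a log2 fold change of 0.48 ± 0.19 (adjusted p = 0.260 in edgeR). Let-7c-5p was at -0.26 ± 0.13 (adjusted p = 0.390 in edgeR) and miR-99b-3p at -0.16 ± 0.14 (adjusted p = 0.611 in edgeR). In CPM, 2 of the 13, let-7e-3p and let-7a-2-3p, lay wholly above VEH, and 1, miR-125a-5p, wholly below it. The shares over all tested miRNAs were 5.97% and 11.5%. With TMM scaling of the levels 2 and 0 of the 13 did so, with no share computed on that scale. MiR-100-3p, the passenger strand of miR-100 itself, had 5 counts in all 9 libraries and could not be fitted. The 4 blood vessel markers summed to 25681 to 30246 CPM in MK-801+CLO and 21837 to 25137 CPM in VEH, without overlap. In the same order of groups the 9 choroid plexus and ependymal markers summed to 2564 to 3855 CPM and 3985 to 12395 CPM, also without overlap but lower in MK-801+CLO. The 4 red blood cell markers summed to 2973 to 3268 CPM and 3071 to 3563 CPM, and the 5 leukocyte and microglia markers summed to 909 to 1128 CPM and 798 to 953 CPM. The 3 oligodendrocyte markers summed to 3738 to 5925 CPM and 3686 to 4910 CPM, and the 6 muscle, liver and endocrine markers to 78.2 to 160 CPM and 158 to 261 CPM. Each of these markers had more than 3 counts in at least 1 library. Of the choroid plexus and ependymal markers 8 of 9 had enough counts to be fitted, and of the muscle, liver and endocrine markers 4 of 6. The part of these markers in the miR-100-5p values was not tested.

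Ratios of counts within a library do not depend on library scaling, so they set miR-10 against miR-99/100 directly. The summed miR-99/100 strands were 151, 38.5 and 504 times the summed miR-10 strands in VEH replicates 1 to 3. They were 330, 312 and 293 times in MK-801, and 188, 1276 and 221 times in MK-801+CLO. The log2 ratio of miR-10 to miR-99/100 was -7.16 ± 1.86 in VEH, -8.28 ± 0.09 in MK-801 and -8.55 ± 1.53 in MK-801+CLO (SD, n = 3). The group ranges overlapped in every comparison, and the differences of -1.12 for MK-801 minus VEH, -0.27 for MK-801+CLO minus MK-801 and -1.39 for MK-801+CLO minus VEH were within the SD of VEH or MK-801+CLO. Without VEH replicate 2 the differences against VEH were -0.18 for MK-801 and -0.45 for MK-801+CLO, and without VEH replicate 3 they were -2.03 and -2.30. Without MK-801+CLO replicate 2 the difference of MK-801+CLO minus MK-801 was 0.61, with its sign turned, and that of MK-801+CLO minus VEH was -0.51. The ratio varied little in MK-801, all 3 VEH libraries lay apart from each other, and in MK-801+CLO replicate 2 stood far from the other two.

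Within the miR-99/100 branch, the ratio of miR-100-5p to miR-99a-5p was higher in MK-801+CLO than in the other groups. It was 1.15, 1.24 and 1.1 in VEH, 1.05, 1.32 and 1.19 in MK-801, and 1.37, 1.4 and 1.48 in MK-801+CLO. All MK-801+CLO libraries were above all libraries of the other groups. Of 13 ratios computed, 1 did not overlap in MK-801+CLO against MK-801 and 4 did not in MK-801+CLO against VEH. No such share was computed over ratios of other miRNAs. MiR-99a-5p and miR-100-5p differ by a single base (T16A), so their ratio also depends on how the counting told them apart.

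**Figure D4:**
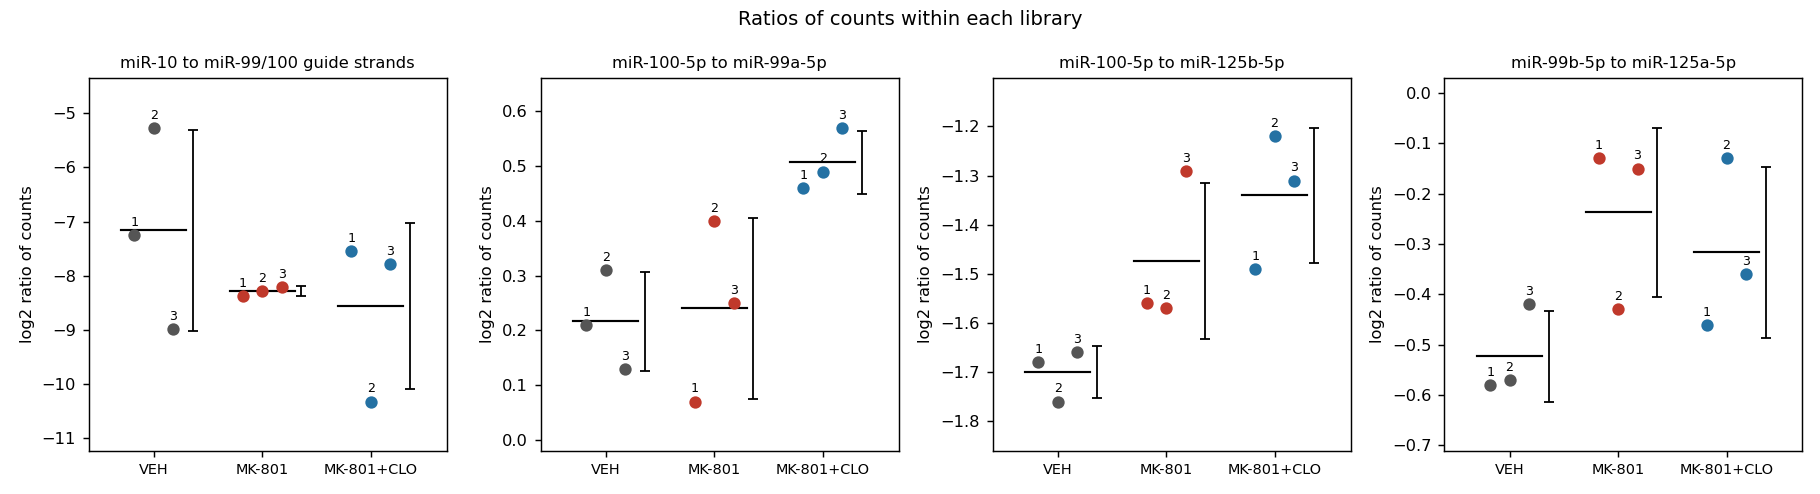
Log2 ratio of counts within each library, by group, for the summed miR-10 to the summed miR-99/100 strands, miR-100-5p to miR-99a-5p, miR-100-5p to miR-125b-5p and miR-99b-5p to miR-125a-5p. Points are libraries numbered by replicate, black lines are group means and error bars are SD (n = 3); vertical axes do not start at 0. The miR-100-5p to miR-99a-5p ratio is higher in all 3 MK-801+CLO libraries than in any other, and the miR-10 ratio spans the widest range in VEH and MK-801+CLO.

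MiR-125b-5p and miR-125b-1-3p were at log2 fold changes of 0.05 ± 0.09 and 0.05 ± 0.10 in MK-801+CLO minus VEH. The ratios of miR-100-5p to these strands reuse its own counts and are no separate support. They placed miR-100-5p in MK-801+CLO above VEH. Its ratio to miR-125b-5p was 0.312, 0.296 and 0.316 in VEH, 0.338, 0.336 and 0.409 in MK-801, and 0.355, 0.431 and 0.403 in MK-801+CLO, so that no library of either drug group overlapped VEH. Its ratio to miR-125b-1-3p, a strand from the same transcript, was 14.8 to 17.3 in VEH and 19.1 to 22.4 in MK-801+CLO, without overlap. In MK-801 that ratio was 16.8 to 22.1. No ratio of miR-100-5p to let-7a-2-3p or let-7a-5p was computed. Their log2 fold changes in MK-801+CLO minus VEH were 0.48 ± 0.19 and -0.20 ± 0.11, against 0.42 ± 0.11 for miR-100-5p. The ratio of miR-99b-5p to miR-125a-5p, from neighbouring hairpins, was 0.669 to 0.746 in VEH, 0.743 to 0.914 in MK-801 and 0.726 to 0.913 in MK-801+CLO, with overlap. In all, 13 ratios were computed, of which 1, 1 and 4 did not overlap in MK-801 against VEH, MK-801+CLO against MK-801 and MK-801+CLO against VEH. In the same order, 5.97%, 4.69% and 5.97% of all tested miRNAs lay wholly above in CPM. Those wholly below made up 7.89%, 6.82% and 11.5%. No such share was computed over ratios of other miRNAs. The 13 ratios share members and are given as a description.

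The label of guide strands held for 4 of the 5 members. The 5p arm made up 98.28% of both arms of miR-99a and 99.79% of both arms of miR-99b over all libraries. MiR-10a-3p had 3 counts against 13473 for miR-10a-5p, and miR-100-3p had 5 counts against 466386 for miR-100-5p. For miR-10b the 4 counts of the 5p arm and 1 count of the 3p arm were too few to tell. The ratio of miR-99b-5p to its passenger strand was 401 to 456 in VEH, 417 to 551 in MK-801 and 526 to 583 in MK-801+CLO. MK-801+CLO did not overlap VEH in this ratio, as in 4 of the 13 ratios computed, with no share over ratios of other miRNAs. By themselves, miR-99b-5p and miR-99b-3p each overlapped between these groups in CPM. The ratio of miR-99a-5p to its passenger strand overlapped in all comparisons and ran from 49.5 to 61.8.

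Across the 9 libraries, correlations of log2(CPM + 1) are given as a description, since the points share library depth and group. MiR-99a-5p and miR-99b-5p varied together (Pearson r = 0.81, Spearman rho = 0.93) although they come from separate loci. MiR-100-5p followed them less closely, with r = 0.42 for miR-99a-5p and r = 0.52 for miR-99b-5p. For miR-10a-5p, r was -0.25, -0.62 and -0.26 with miR-99a-5p, miR-99b-5p and miR-100-5p (Spearman rho = -0.27, -0.48 and -0.17). It was thus weak with miR-99a-5p and miR-100-5p. Of 9 pairs of strands from the same precursor or transcript, r ran from -0.67 to 0.61. It was -0.67 for miR-99b-5p with let-7e-5p, -0.10 for miR-99b-5p with miR-125a-5p, -0.12 for miR-99a-5p with let-7c-5p and -0.12 for miR-100-5p with miR-125b-1-3p. It was 0.61 for miR-99a-5p with miR-99a-3p and 0.61 for miR-100-5p with let-7a-2-3p. The other 3 pairs were let-7e-5p with miR-125a-5p (0.29), miR-99b-5p with miR-99b-3p (0.27) and miR-99a-5p with miR-125b-2-3p (-0.26).

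Outside the family, the miRNAs with a mean of at least 10 CPM most like miR-10a-5p over the 9 libraries were miR-361-5p (r = 0.80), miR-192-5p (r = 0.73) and miR-125b-5p (r = 0.73). Those most like miR-99a-5p were miR-221-5p (r = 0.81), miR-30a-5p (r = 0.80) and miR-138-5p (r = 0.80), a miRNA of dendritic spines. Those most like miR-99b-5p were miR-92b-3p (r = 0.80), miR-30e-3p (r = 0.77) and miR-504 (r = 0.71). Those most like miR-100-5p were miR-151-5p (r = 0.90), miR-3586-3p (r = 0.87) and miR-339-3p (r = 0.82). No miRNA appeared under more than 1 member.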

How the data were processed

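The authors deposited 1 table with whole-number counts per mature miRNA and library, and values headed TPM that match CPM computed from those counts (largest difference 0.000473%). A deposited Length column gives another value, the sequence length in bases. Cutadapt 1.14, Bowtie, DESeq and the build Rnor 6.0 are named without roles per the submitters' processing notes; the sources used here do not give how reads that fit several miRNAs were handled. Blank lines (21) were dropped and 1 split name was rejoined.

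The members and lists were chosen with earlier results of these data known. The rule named the 5 members, their passenger strands and cluster partners, the marker lists and, per member, the 3 miRNAs most like it. FilterByExpr kept 469 miRNAs with 99.997% of the counts. EdgeR 4.0.16 in R 4.3.3 fitted them with TMM factors (0.958 to 1.054), 1 mean per group and quasi-likelihood tests over all 9 libraries, with Benjamini-Hochberg adjustment. SE is the absolute log2 fold change over the square root of F. The code was tested on simulated counts. Alternatives were DESeq2 1.42.0, limma 3.58.1 (voom, and trend with pseudocounts of 1 and 0.1), other scalings and filters, the replicate number as a block, the compared libraries alone and each library left out. Wilson intervals (95%, SciPy 1.17.1) cover counting error only. Sequences matched RefSeq (GRCr8) for the 4 of 5 members it lists.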

Additional observations from a re-analysis of the deposited data

How the results depend on the processing

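Calls over all miRNAs were 0 in edgeR in each comparison. DESeq2 called 1 in MK-801 against VEH, 2 in MK-801+CLO against MK-801 and 3 in MK-801+CLO against VEH, and the same numbers, 1, 2 and 3, without a filter. On the compared libraries alone, DESeq2 called 0 in MK-801 against VEH, 0 in MK-801+CLO against MK-801 and 13 in MK-801+CLO against VEH (25, 33 and 59 at an unadjusted p under 0.05); this setting and DESeq2 without a filter were chosen after seeing the data. With each library left out in turn, edgeR called 0 to 1, 0 to 2 and 0 to 7; the highest values came without MK-801 replicate 2, without MK-801+CLO replicate 2 and without MK-801+CLO replicate 2 (1, 2 and 7). No passenger strand or partner was among the calls in any setting run. With the replicate number as a block, edgeR called 0 miRNAs in each comparison. Correlations of deviations between same-numbered libraries ran from -0.34 to 0.13, so the numbers were not taken to pair libraries.

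The log2 fold changes of the 3 miR-99/100 strands kept their sign in MK-801 against VEH and MK-801+CLO against VEH over all 22 alternatives, with lowest values of 0.07 and 0.06. In MK-801+CLO against MK-801, miR-100-5p ran from 0.14 to 0.33, and miR-99a-5p (-0.18 to 0.07), miR-99b-5p (-0.08 to 0.16) and miR-10a-5p (-0.18 to 0.60) changed sign. MiR-10a-5p against VEH ran from -2.15 to -0.29 for MK-801 and from -2.00 to -0.14 for MK-801+CLO, and limma voom gave -0.94 and -1.10. The difference in the log2 ratio of miR-10 to miR-99/100 ran from -2.03 to -0.18, from -0.77 to 0.61 and from -2.30 to -0.45 in the 3 comparisons when libraries were left out, and with family means of log2(CPM + 1) in place of sums it was -0.64, -0.16 and -0.80. The cause of these shifts was not tested. The ratio without miR-10a-5p and the ratio of passenger strands were not run, since miR-10b-5p and the miR-10 passenger strands had at most 1 count per library each.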
